A study of Mus musculus with 4 samples.

Results

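The core circadian clock loop was examined in eyes of C3H/f+/+ mice as 10 genes, the activators Clock, Arntl and Npas2, the repressors Per1, Per2, Per3, Cry1 and Cry2, and the nuclear receptors Nr1d1 and Nr1d2. They were taken by name from a deposited table of 22863 genes, in which all 10 were present and all 10 had values high enough to be tested. RNA-seq had been done on 2 samples from subjective day and 2 from objective day, each made of 4 eyes pooled from a female and a male, and each holding the back of the eye, that is retina, retinal pigment epithelium (RPE), choroid and posterior sclera. C3H/f+/+ mice make melatonin and lack the Pde6b mutation of the original C3H strain, and all animals had been raised and entrained in a light-dark cycle. Subjective day mice were taken at circadian time (CT) 6 after 18 hours of darkness according to the Methods, although another passage of the paper gives a longer dark period. Objective day mice were taken at zeitgeber time (ZT) 6, after light in the morning and 1 hour of darkness. The age of these mice is not given in the sources used here. Both conditions were sampled at the same clock hour, so the data compare light history at a single phase and hold no time course.

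In the mammalian clock, the CLOCK:BMAL1 heterodimer (BMAL1 is the product of Arntl) binds E-boxes and drives the Per and Cry genes, whose proteins return to the nucleus and repress it. The same dimer drives Nr1d1 and Nr1d2, which encode REV-ERBα and REV-ERBβ, and these repress Arntl through elements that the activating ROR receptors also bind. The retina carries a clock of its own that light can reset, and Per1 and Per2 are the members best known for acute induction by light.

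Of the 10 members, 2 differed between the conditions at an adjusted p under 0.05 (limma on log2(value + 1), Benjamini-Hochberg adjustment over all 17784 genes tested). Nr1d2 was lower and Nr1d1 was higher in objective day, and the other 8 did not pass the threshold. Across all genes tested, 8.51% were called, 7.45% as lower and 1.06% as higher, and with 10 members a count of 2 cannot be set apart from that background. Values of the 2 conditions did not overlap for 7 of the 10 members, compared with 56.1% of all genes. The median log2 fold change of the members, objective day over subjective day, was 0.0065, and that of all genes tested was 0.015. Among the 8 members that were not called, the 95% confidence intervals of the log2 fold change ran from -0.35 at the lowest (Per2) to 0.37 at the highest (Npas2). In this fit, a difference of more than 1.29-fold in either direction lay outside the interval of each of them. These intervals are for single genes and are not adjusted for the number of genes. When each sample's trend with the GC content of the transcripts was removed, 0 of the 10 members were called, as were 211 of all genes (111 lower and 100 higher). The interval of Per2 then reached -0.45, so the 1.29-fold bound holds only without this removal.

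**Figure D1:**
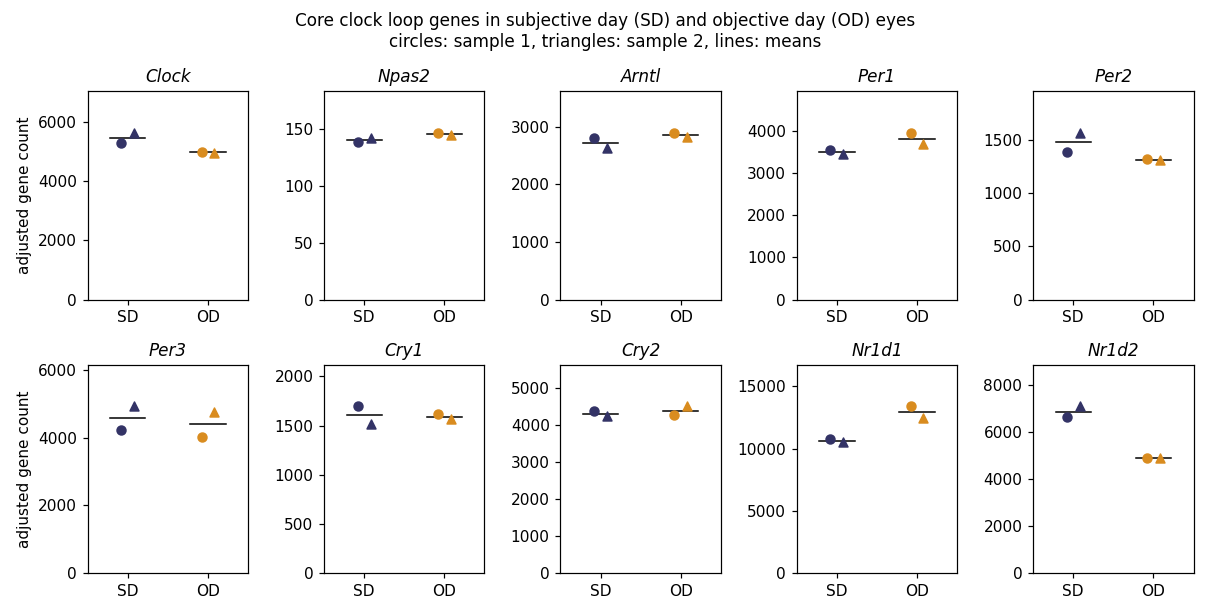
Adjusted gene counts of the 10 core loop genes, with each panel starting at 0; circles and triangles are the samples numbered 1 and 2 of subjective day (SD) and objective day (OD), and lines are the means of 2 samples. The conditions stand well apart for Nr1d2 and Nr1d1, while the points of Per3, Cry1 and Cry2 overlap.

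Nr1d2 showed the largest difference of the 10 members before removal of the GC trend, after which Per2 and Clock exceeded it. The gene (ENSMUSG00000021775) spans chr14:18204054-18239127 (GRCm38, minus strand) and encodes REV-ERBβ, a heme-binding receptor that represses its targets. Its deposited values, which resemble library-size-adjusted gene counts and are called adjusted counts here, were 6666 and 7108 in the subjective day samples, against 4921 and 4911 in the objective day samples. Both objective day samples were lower than both subjective day samples, and they lay very near each other. The subjective day mean was 6887 ± 312 and the objective day mean was 4916 ± 7.0 (SD, n = 2 each). Nr1d2 fell by 28.6%, estimated from a log2 fold change of -0.49 (standard error 0.062, adjusted p = 0.00601 from limma). Leaving out each sample in turn gave log2 fold changes from -0.53 to -0.44, all past the threshold, whereas a variance prior that did not follow the mean ended the call (adjusted p = 0.127 from limma). Of all genes tested, 8.37% had a more negative log2 fold change. The longest Nr1d2 transcript has a GC content of 41.8%, and the tenth of all genes with the lowest GC content had a median log2 fold change of -0.42. Once this trend was taken out, Nr1d2 stood at -0.19 (95% confidence interval -0.32 to -0.048, adjusted p = 0.214 from limma), which no longer passed.

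Nr1d1 differed in the opposite direction. The gene (ENSMUSG00000020889) spans chr11:98767932-98775333 (GRCm38, minus strand) and encodes REV-ERBα, the receptor whose repression of Arntl closes the stabilising loop of the clock. Its adjusted counts were 10749 and 10513 in subjective day, against 13399 and 12465 in objective day. The conditions did not overlap, with the objective day samples the higher. The subjective day mean was 10631 ± 167 and the objective day mean was 12932 ± 660 (SD, n = 2 each). Nr1d1 thus rose by 0.28 on the log2 scale (standard error 0.067, adjusted p = 0.0462 from limma), a fold change of 1.22, and 8.13% of all genes tested had a larger one. This call stood close to the threshold. It was lost with no filter on low values (adjusted p = 0.053 from limma) and with a variance prior that did not follow the mean (0.19). It was also lost without the subjective day sample 2 (adjusted p = 0.0877), without the objective day sample 1 (0.36) and without the objective day sample 2 (0.136), although the log2 fold change stayed between 0.23 and 0.33 with each sample left out. The longest Nr1d1 transcript has a GC content of 56.8%, and removal of the GC trend gave a log2 fold change of 0.17 (95% confidence interval 0.013 to 0.33, adjusted p = 0.325 from limma).

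Some reads of Nr1d1 cannot be assigned with certainty. Its exons share 263 bases, or 8.55% of their merged length, with those of Thra, a thyroid hormone receptor gene on the opposite strand, and the strand setting of the read counting is not given in the sources used here. The adjusted counts of Thra were 8681 and 8184 in subjective day, against 8995 and 8505 in objective day. These values overlapped, and Thra did not pass the threshold (log2 fold change 0.053, adjusted p = 0.664 from limma). Among the other members, Cry2 shares 295 exonic bases with D930015M05Rik and Arntl shares 33 with Gm45355, in both cases on the opposite strand, and the remaining 7 share none with another annotated gene.

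The 250 bases before the RefSeq start of Nr1d1 and of Nr1d2 are shown because these are the members that were called. Both genes lie on the minus strand (GRCm38.p6), and both sequences are written 5′ to 3′ along the gene. The RefSeq starts differ from the 5′ ends of the gene spans given above, which came from GENCODE M21. Capitals mark letters of the clock elements searched, which are an E-box (CACGTG), an E′-box (CACGTT), a D-box (TTATGTAA or TTATGCAA), a cyclic AMP response element (CRE, TGACGTCA, or its core TGACGT) and the core of a ROR and REV-ERB response element (RORE, TAGGTCA), each on both strands. Full CREs also hold the core, and the other elements do not contain each other. The Nr1d1 stretch is chr11:98775378-98775627 and the Nr1d2 stretch is chr14:18239107-18239356.
Nr1d1: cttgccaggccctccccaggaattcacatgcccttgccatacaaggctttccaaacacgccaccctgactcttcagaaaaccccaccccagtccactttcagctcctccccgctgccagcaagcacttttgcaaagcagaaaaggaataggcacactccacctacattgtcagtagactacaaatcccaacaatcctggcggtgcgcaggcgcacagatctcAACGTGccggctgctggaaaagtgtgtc
Nr1d2: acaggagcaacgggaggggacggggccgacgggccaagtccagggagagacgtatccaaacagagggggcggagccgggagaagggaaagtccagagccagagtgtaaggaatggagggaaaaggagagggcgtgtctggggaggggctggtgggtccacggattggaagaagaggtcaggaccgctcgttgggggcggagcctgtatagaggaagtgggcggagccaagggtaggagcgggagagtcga
The Nr1d1 stretch held a single E′-box, on the opposite strand, whose first base is at position -28 from the start. None of the letters searched were found in the Nr1d2 stretch. Its GC content was 63.6%, compared with 54.8% for Nr1d1, an order opposite to that of the transcripts.

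None of the activators passed the threshold. Clock encodes the histone acetyltransferase partner of the activating dimer, and its adjusted counts were 5303 and 5633 in subjective day, against 4978 and 4956 in objective day. Both objective day values were lower, and the log2 fold change was -0.14 (95% confidence interval -0.28 to 0.0044, adjusted p = 0.21 from limma). Clock has the lowest GC content of the members, 40.9%. Removal of the GC trend turned its direction, to a log2 fold change of 0.22 (95% confidence interval 0.086 to 0.36, adjusted p = 0.142 from limma), so no direction is given for this gene. Arntl, the partner that CLOCK and NPAS2 share and the target of REV-ERB repression, had adjusted counts of 2804 and 2627 in subjective day, against 2898 and 2820 in objective day. Its objective day values were slightly higher without overlap, with a log2 fold change of 0.075 (95% confidence interval -0.072 to 0.22, adjusted p = 0.503 from limma). In none of the alternative settings was Arntl called, and its log2 fold change stayed between 0.028 and 0.12. Npas2, the paralog of Clock best known from the forebrain, was by far the least abundant member, with adjusted counts of 139 and 142 in subjective day, against 147 and 144 in objective day. Its conditions were separated by less than 3 counts (log2 fold change 0.052, 95% confidence interval -0.26 to 0.37, adjusted p = 0.847 from limma).

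Among the Period genes, whose products carry the repressor complex, Per1 and Per2 had point estimates of opposite sign and neither was called. Adjusted counts of Per1 were 3539 and 3446 in subjective day, against 3949 and 3672 in objective day. Both objective day samples were higher, with a log2 fold change of 0.12 (95% confidence interval -0.023 to 0.27, adjusted p = 0.266 from limma), or at most 1.21-fold at the upper bound. Per2 had adjusted counts of 1390 and 1569 in subjective day, against 1326 and 1308 in objective day. Here both objective day samples were lower, with a log2 fold change of -0.16 (95% confidence interval -0.35 to 0.016, adjusted p = 0.232 from limma). Removal of the GC trend brought Per1 to -0.00055 and Per2 to -0.26, again without a call (adjusted p = 0.998 and 0.214 from limma). Per3, a Period paralog that is dispensable for rhythmicity, had adjusted counts of 4211 and 4916 in subjective day, against 4016 and 4761 in objective day. Its conditions overlapped and the samples numbered 2 were the higher in both (log2 fold change -0.057, 95% confidence interval -0.30 to 0.18, adjusted p = 0.773 from limma). Per3 had the widest spread of the Period genes, with an SD of 498 in subjective day and 527 in objective day (n = 2 each).

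The cryptochromes, which are the strongest repressors of the activating dimer, had the smallest differences of the members before removal of the GC trend, and Per1 and Npas2 had them after it. Adjusted counts of Cry1 were 1694 and 1516 in subjective day, against 1616 and 1563 in objective day, so that the objective day samples lay between the subjective day samples. Its log2 fold change was -0.012 (95% confidence interval -0.19 to 0.16, adjusted p = 0.941 from limma). Adjusted counts of Cry2 were 4363 and 4234 in subjective day, against 4254 and 4494 in objective day, which also overlapped. The log2 fold change of Cry2 was 0.025 (95% confidence interval -0.12 to 0.17, adjusted p = 0.837 from limma), the narrowest interval of the cryptochromes. The sign of both depended on which sample was left out, with Cry1 running from -0.092 to 0.068 and Cry2 from -0.015 to 0.064.

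**Figure D2:**
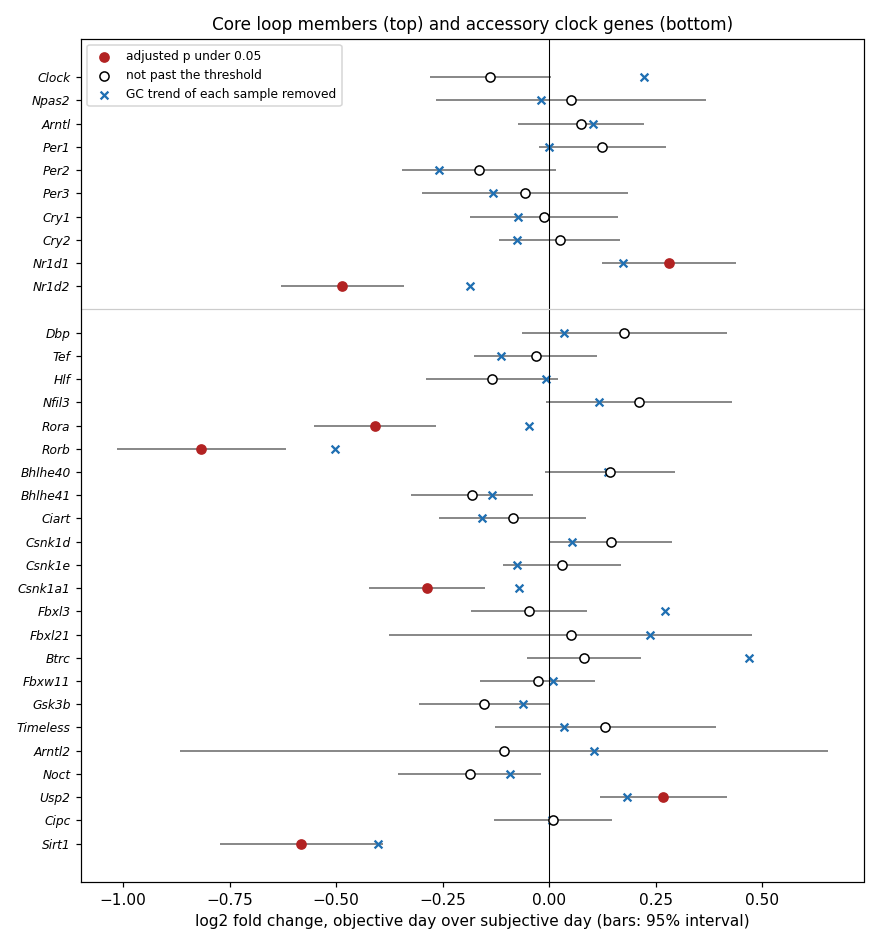
Log2 fold changes of objective day over subjective day for the 10 core loop members (top) and 23 accessory clock genes (bottom), with 95% confidence intervals from limma as bars. Filled red points passed an adjusted p of 0.05 (2 members and 5 accessory genes), open points did not, and blue crosses give the values with the GC trend removed, which among the members lie outside the bar for Clock and Nr1d2.

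Levels were compared between genes as adjusted counts per kilobase of merged exons. Nr1d1 was the most abundant member, at 3455 ± 54.2 per kilobase in subjective day and 4203 ± 215 in objective day (SD, n = 2 each). Nr1d2 came next, at 1273 ± 57.7 and 909 ± 1.29. Cry2 followed with 670 to 711 over the 4 samples and Per1 with 612 to 701, and these ranges overlapped. Cry1, at 454 to 507, and Per3, at 418 to 512, also overlapped, as did Clock, at 361 to 410, and Arntl, at 349 to 385. Per2 lay below these, at 223 to 268 per kilobase. Npas2 was the lowest member, at 29.0 to 30.6. Per kilobase of the longest transcript, the order of Per3, Arntl, Clock and Cry1 changed, while Nr1d1, Nr1d2, Cry2 and Per1 stayed the highest in that order and Per2 and Npas2 the lowest. The summed adjusted counts of the 10 members were 40857 and 41703 in subjective day, against 41502 and 41093 in objective day, and these totals overlapped.

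Ratios between partners were taken within each sample on the per kilobase scale, as a description without a test. With 2 samples against 2, an exact two-sided permutation test of a single ratio cannot go below p = 0.33. Nr1d1 exceeded Nr1d2 by 2.83-fold and 2.60-fold in the subjective day samples, and by 4.79-fold and 4.46-fold in the objective day samples. The mean ratio was 2.71-fold and 4.62-fold, a shift of 0.77 on the log2 scale that was the largest of the 7 ratios computed. With the GC trend removed this shift was 0.36, and those of Arntl to Clock, Clock to Npas2 and Cry1 to Cry2 changed sign. It follows from the opposite differences of these genes given above and is no further result. For Per1 to Per2 the log2 ratio was 1.40 and 1.19 in the dark-kept mice and 1.63 and 1.55 after light, without overlap. The Arntl to Clock log2 ratio was -0.052 and -0.23 in subjective day, against 0.087 and 0.054 in objective day, so that both genes were at nearly equal levels per kilobase of merged exons. Per kilobase of the longest transcript, Arntl was the higher in both conditions, at 680 against 561 for Clock in subjective day and 716 against 510 in objective day. For Cry1 to Cry2 it was -0.45 and -0.56 in subjective day, against -0.48 and -0.60 in objective day, which overlapped. Clock exceeded Npas2 by 13.6-fold in subjective day and 11.9-fold in objective day.

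**Figure D3:**
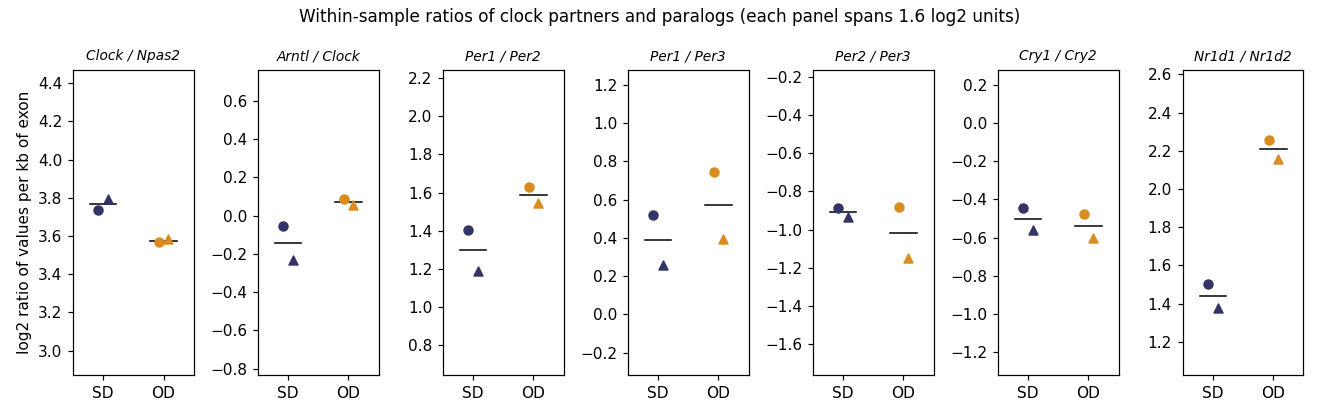
Within-sample log2 ratios of adjusted counts per kilobase of exon for 7 combinations of clock partners and paralogs; circles and triangles are the samples numbered 1 and 2 of subjective day (SD) and objective day (OD), lines are means of 2 samples, and each vertical axis spans 1.6 log2 units. Nr1d1 to Nr1d2 moves the most, by 0.77 (0.36 with the GC trend removed), and Cry1 to Cry2 overlaps between the conditions.

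The GC content of the longest transcript ran from 40.9% (Clock) to 59.4% (Per1) among the members, with a median of 52.3%, compared with 49.8% over all genes tested. Clock and Nr1d2 are the only members below 48%, and the other 8 lie between 48.2% (Arntl) and 59.4%. Against the -0.42 given above for the genes poorest in GC, the tenth richest in GC had a median of 0.14. Measured from the trend over all genes, Clock (0.22), Nr1d1 (0.17) and Arntl (0.10) lay above it. Per2 (-0.26), Nr1d2 (-0.19), Per3 (-0.13), Cry2 (-0.076) and Cry1 (-0.072) lay below it, and Npas2 (-0.020) and Per1 (-0.00055) lay near it. None of these 10 distances passed the threshold in the fit without a replicate block, and 4 passed with one (Clock, Per2, Nr1d1 and Nr1d2), a fit that called 1626 of all 17536 genes.

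**Figure D4:**
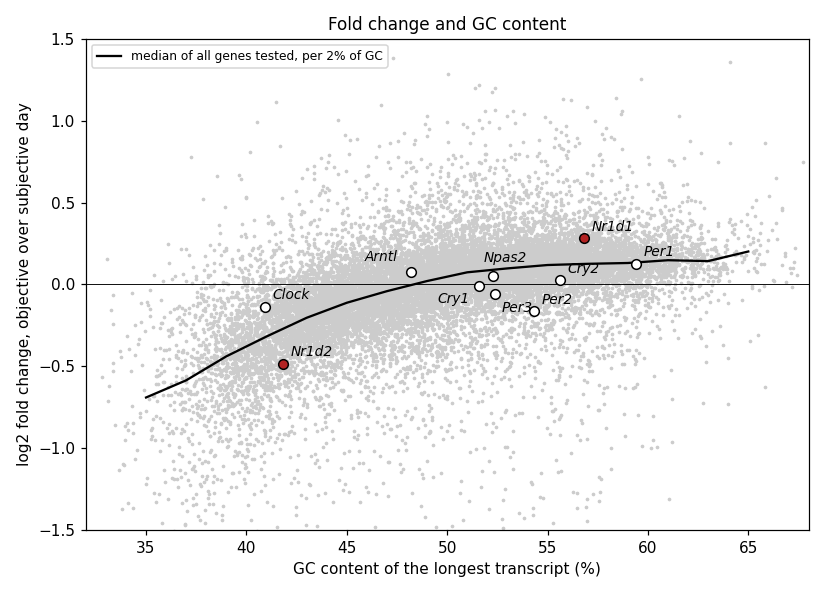
Log2 fold change of objective day over subjective day against the GC content of the longest transcript for all genes tested (grey points) and the 10 members (large points, red where called). The black line is the median of all genes in steps of 2% of GC, and 152 genes beyond the axes are not drawn. Nr1d2 (41.8% GC, -0.49) lies below the line and Clock (40.9%, -0.14) above it.

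Clock elements were then listed in the promoters of the members, because these elements join them into a loop. RefSeq gave 13 promoters for 9 of the 10 members, each with 250 bases before and 50 after a start, and none for Per2. Windows of 30 bases are shown for the elements outside Nr1d1, on GRCm38.p6 and 5′ to 3′ along the gene, with the matched letters in capitals. The E-box of Per1 lies in chr11:69098771-69098800 (plus strand) and that of Cry1 in chr10:85185097-85185126 (minus strand), with an E′-box of Cry1 in chr10:85185116-85185145 and of Cry2 in chr2:92434218-92434247 (minus strand). The D-boxes of Per3 lie in chr4:151044852-151044881 and chr4:151044805-151044834 (minus strand), and that of Per1 in chr11:69098914-69098943. The CRE core of Per1 lies in chr11:69100008-69100037, before its other annotated start, and the RORE core of Arntl in chr7:113207530-113207559 (plus strand).
Per1 E-box: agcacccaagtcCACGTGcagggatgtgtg
Cry1 E-box: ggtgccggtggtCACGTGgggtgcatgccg
Cry1 E′-box: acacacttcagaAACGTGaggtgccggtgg
Cry2 E′-box: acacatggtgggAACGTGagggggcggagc
Per3 D-box, far: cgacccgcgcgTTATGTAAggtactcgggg
Per3 D-box, near: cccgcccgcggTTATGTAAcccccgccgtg
Per1 D-box: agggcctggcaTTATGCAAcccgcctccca
Per1 CRE core: gagctcagcggcTGACGTcggtttccctgg
Arntl RORE core: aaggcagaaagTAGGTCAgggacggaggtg
An E-box was found in the promoters of 2 members (Cry1 and Per1) and in 7.15% of all 32851 promoters, and an E′-box in those of 3 members (Cry1, Cry2 and Nr1d1) and in 4.68% of all. Letters of a D-box occurred in Per3, which has 2 copies of TTATGTAA, and in Per1, which has TTATGCAA, and these forms stand in 0.938% and 0.743% of all promoters. The CRE core stood in Per1 alone among the members and in 7.51% of all promoters, and the full CRE (1.79% of all) in none of them. Arntl alone held the RORE core, which 2.61% of all promoters hold, at position 31 after the start. Clock, Npas2 and Nr1d2 held none of these letters. A match is a run of letters and not a bound site. The E′-box letters of Nr1d1 also stand in Cry1 and Cry2, and no link between elements and differences was tested.

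Of 24 further clock genes (output factors, ROR receptors, kinases, ubiquitin ligases and modifiers), 5 passed the threshold, 4 lower and 1 higher in objective day (all genes tested: 8.51% called, 7.45% lower and 1.06% higher), and the median log2 fold change of the 24 was -0.039. Rora and Rorb, which encode the receptors that activate through the elements REV-ERBs repress, were both lower. Adjusted counts of Rorb, which is also needed for photoreceptor development, were 14526 and 16099 in subjective day, against 8187 and 9214 in objective day, a log2 fold change of -0.82 (standard error 0.085, adjusted p = 0.00558 from limma). The objective day samples were far below the subjective day samples, and Rorb stayed past the threshold with the GC trend removed (-0.50, adjusted p = 0.0332). Adjusted counts of Rora were 12376 and 12679 in subjective day, against 9461 and 9416 in objective day, a log2 fold change of -0.41 (standard error 0.061, adjusted p = 0.00974 from limma). The GC content of Rora is 40.9%, and taking out the GC trend left -0.047 (adjusted p = 0.821 from limma).

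Sirt1, a deacetylase that acts on clock proteins, fell by 0.58 on the log2 scale (adjusted p = 0.00784 from limma), and Csnk1a1, a casein kinase 1 gene, fell by 0.29 (adjusted p = 0.027). The 1 accessory gene called as higher was Usp2, a rhythmically expressed deubiquitinase, with adjusted counts of 4475 and 4244 in subjective day, against 5396 and 5105 in objective day (log2 fold change 0.27, adjusted p = 0.0444 from limma). The Usp2 call was lost with no filter on low values and with a variance prior that did not follow the mean. None of these 3 passed after removal of the GC trend (log2 fold changes -0.40, -0.071 and 0.18, adjusted p = 0.0726, 0.679 and 0.267 from limma), although Sirt1 and Usp2 did when a replicate block was added (adjusted p = 0.00252 and 0.0234). With that removal and no block 2 accessory genes were called (5 with the block), Rorb and Btrc, of which Btrc (0.47, adjusted p = 0.0286) had not been called before (0.082). The accessory count was 3 without the subjective day sample 2 and 2 without either objective day sample. The direct output factors Dbp, Tef and Hlf and the repressor Nfil3, which act at D-boxes, did not pass, with log2 fold changes of 0.18, -0.031, -0.13 and 0.21 and adjusted p values from 0.211 to 0.793 from limma.

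Of 16 genes known as early responders to light or neuronal activity, 3 (Egr1, Fos and Ier2) were called, all higher in objective day, as were 1.06% of all genes tested. Nr4a1 and Npas4 (log2 fold changes 0.36 and 0.85) were called higher as well when a replicate block was added. Ier2 did not pass once the GC trend was removed (log2 fold change 0.38 before and 0.25 after, adjusted p = 0.218 from limma). The median log2 fold change of the 16 was 0.25. In bulk tissue, fewer cells of a type and less RNA per cell cannot be told apart. Rod markers were abundant in every sample, and 0 of 7 were called, although limma with a replicate block called 4 (Sag, Nr2e3 and Pde6b higher, Cnga1 lower) among the 3613 genes that it called in all. Summed levels overlapped between the conditions for the rod, ON bipolar, amacrine, ganglion, Müller glia, RPE, lens and skeletal muscle lists. The lens sum differed between the samples numbered 1 (38385 and 45074) and 2 (4964 and 11711) within each condition, and Best1 of the RPE list was listed at 0 in 1 subjective day sample and too low to test. For 4 marker lists the sums did not overlap, and neither did the values of 56.1% of all single genes tested. Cone markers summed to 24430 and 22155 in subjective day, against 24746 and 26420 in objective day, with 0 of 5 called (Arr3 was called with the block). Surface epithelium markers summed to 9809 and 10217 in subjective day, against 2751 and 5076 in objective day, with 3 of 3 tested genes of 4 listed called lower (Krt12 was too low to test). Endothelial markers summed to 13491 and 13480 in subjective day, against 12616 and 12391 in objective day, with 0 of 4 called. Kdr made up most of this sum (11869 and 11935, against 10927 and 10653). The log2 fold changes were -0.14 for Kdr, 0.12 for Pecam1, 0.19 for Cdh5 and -0.017 for Tek. Blood markers summed to 1234 and 1395 in subjective day, against 1939 and 2198 in objective day, with 1 of 3 called, and 2 of the 5 listed genes, Hbb-b1 and Hbb-b2, were not matched. Among the lists whose sums overlapped, 2 of the 4 Müller glia genes (Aqp4 and Slc1a3), 1 of the 5 ON bipolar genes (Cabp5) and 1 of the 5 tested RPE genes (Rpe65) were called lower, compared with 7.45% of all genes tested. In the ON bipolar and RPE lists, Grm6, Trpm1 and Rdh5 went the other way (log2 fold changes 0.17, 0.17 and 0.35) and were called higher with the replicate block. With the GC trend removed, Aqp4, Slc1a3, Cabp5 and Rpe65 did not pass (log2 fold changes -0.10, -0.23, -0.20 and -0.24, adjusted p = 0.559, 0.136, 0.239 and 0.45 from limma). The last 3 passed when a replicate block was added to that fit. For Rpe65, the paper also reported a lower level in objective day by qRT-PCR, in separate samples. The 3 epithelial genes and Hba-a1, the blood gene called, did pass with the GC trend removed. The part of these tissues in the differences of Nr1d1 and Nr1d2 was not tested.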

How the data were processed

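RNA-seq was analysed for 4 samples of mouse posterior eye, 2 per condition, grouped by their labels. The submitters' processing notes name CASAVA 1.8, TopHat2 2.0.9, Bowtie2 2.1.0, HTSeq and edgeR, and the Methods name Ensembl release 72. The authors deposited 1 signal value per gene and sample, with totals from 33278417 to 35236783. How it was made is not given in the sources used here. Many of the values are not whole numbers, and they resemble gene counts adjusted by edgeR to a similar library size. They are called adjusted counts on that inference. The sequencing depth is unknown. The table also holds the authors' own fold change, mean level, p-value and FDR, which were not used, and 0 columns of sample values were left out.

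A gene was tested if 2 or more samples reached a value of 10, and log2(value + 1) was compared with limma 3.58.1 in R 4.3.3 (variance prior following the mean, two-sided, Benjamini-Hochberg adjustment). Raw counts were not analysed here, and no count test was run. The members and lists were chosen with earlier results of these data known. The text names the 10 members, the called accessory genes and genes that share exons with a member. Other accessory genes were named after their values were seen. One accessory gene enters the counts and is not reported here by name. Symbols of all 24 accessory genes were matched, Cipc by its symbol in GENCODE M21 and Ciart and Noct by older symbols. Gene models, transcript length and GC content came from GENCODE M21 (GRCm38), and the GC trend was removed by local regression with a span of 0.3 for the 98.6% of genes of known GC content. Promoters came from RefSeq (GRCm38.p6). The fit was also run on simulated counts that held no GC trend and no shared replicate effect, so that run cannot give the error rate in these data. The samples are described as biological replicates. The p-values rest on the spread between 2 pools of animals per condition, moderated by the variance prior, which draws on all genes tested. Figures were drawn with matplotlib 3.10.9.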

Additional observations from a re-analysis of the deposited data

How the results depend on the processing

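Over 14 alternatives (scaling, filter, pseudocount, variance prior, replicate block, GC trend and each sample left out), Nr1d2 was called in 12 and Nr1d1 in 8, neither changing direction, with log2 fold changes from -0.53 to -0.19 and from 0.17 to 0.33. Of all genes, 1514 were called in the analysis as reported, 3613 with the replicate block, 211 with the GC trend removed, 0 with a variance prior that did not follow the mean (3586 had an unadjusted p under 0.05 in limma, against 4512 before) and 674 to 2778 with 1 sample left out (2778 without subjective day sample 1, 775 without objective day sample 1, 674 without objective day sample 2). Against 2 members, 1 was called with no filter, 0 without the variance trend or with the GC trend removed, 4 with the block and GC removal together (Clock, Per2, Nr1d1 and Nr1d2, where 1626 of all 17536 genes were called, 712 lower and 914 higher), and 1 to 2 with 1 sample left out. Against 5 accessory genes, 0 were called without the variance trend, 2 with the GC trend removed, 7 with the replicate block (6 lower and 1 higher) and 2 to 6 with 1 sample left out. GC removal, with or without the block, reversed Clock (0.22), Npas2 (-0.020), Per1 (-0.00055) and Cry2 (-0.076). Leaving out 1 sample reversed Per3 (-0.18 to 0.065), Cry1 (-0.092 to 0.068) and Cry2 (-0.015 to 0.064). The causes were not tested. The replicate block changed no other call among the members. The labels give no link other than the number between samples with the same number. The correlation of the deviations of such samples from the group means across genes was 0.319. In a fit without 1 sample, the lone sample of a condition is assumed to vary like the others. With 2 samples per condition and no depth given, small differences in Npas2 were not detectable.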
